A study of Mus musculus with 6 samples.

Results

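The genes described here are 36 genes of fatty acid synthesis, triglyceride synthesis and lipid droplets, taken by their symbols from a table that covers 19505 named genes in 6 mouse livers. Of the 36, 35 were measured. Srebf1, which encodes the lipogenic transcription factor SREBP-1, is paired with no row of the platform annotation and has no value here. The livers came from male C57BL/6 mice aged 8 weeks, 3 wild type (WT) and 3 labelled HMGB2-KO, in which the gene for the chromatin protein HMGB2 is knocked out. Each liver was read on 1 Clariom S array, a single-colour Affymetrix array, to find genes related to Hmgb2 expression. The labels name no treatment, diet, feeding state or time of collection, and they do not say which part of Hmgb2 was deleted or in which cells. They number the livers 1 to 3 within each genotype. Livers 1, 2 and 3 came from animals 38, 40 and 31 in WT and from animals 39, 41 and 32 in HMGB2-KO. Nothing in the labels says how the mice were housed or related, so p-values measure the spread between these animals only.

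A hepatocyte makes fat from sugar by exporting citrate from its mitochondria, cleaving it to acetyl-CoA and joining acetyl units into palmitate, which is then elongated, desaturated and esterified to triglyceride. Insulin and sugar drive these steps through SREBP-1c and ChREBP, and fasting turns them down. Triglyceride is stored in droplets coated by perilipins and CIDE proteins, and it is released again by lipases. In fatty liver the nuclear receptor PPARgamma adds a set of genes better known from adipose tissue, among them Cd36, Cidea and Cidec.

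Every value below is a log2 difference from a baseline of that gene's own row, with the median of its array subtracted. Values of 1 gene can thus be compared between livers, but not the level of 1 gene with that of another. Hmgb2 itself read 0.47, 0.36 and 0.42 in WT livers 1 to 3 and -0.66, -0.33 and -0.43 in HMGB2-KO livers 1 to 3, the direction that the labels would have. The difference was 1.85-fold, so the values show a lower reading and not the absence of the transcript. The array of WT liver 2 stood apart before centring, with a median over all rows of 0.26 against -0.05 to 0.01 on the other 5. After centring, the hepatocyte markers, 12 in all, had a median between 0.00 and 0.05 in the other livers and of -0.26 in WT liver 2. That low value came with the 0.26 subtracted from this array, and before centring WT liver 2 lay among the others. Rows of olfactory receptors had a median of 0.51 on this array before centring, against -0.12 to 0.02 on the other 5. The values printed in the map of all genes by liver can be read along a row.

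**Figure D1:**
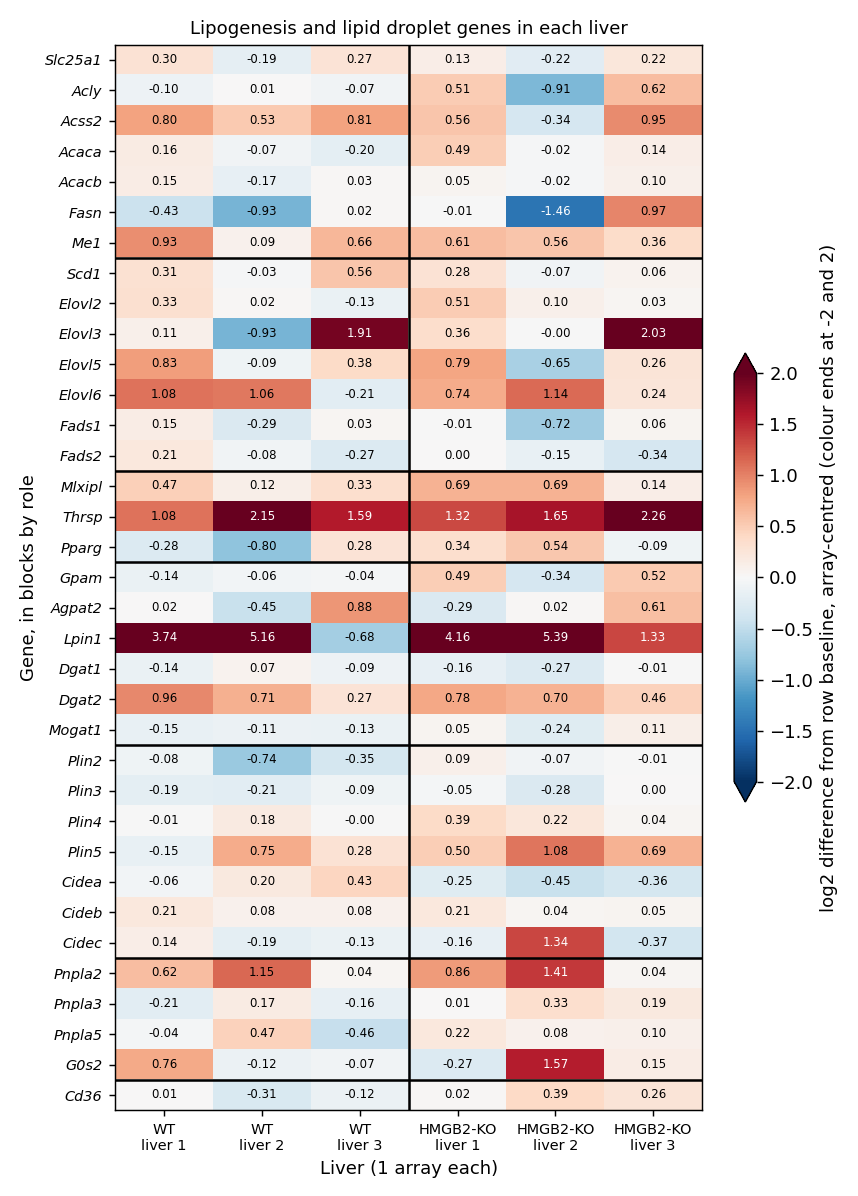
Values of the 35 measured genes (rows, in blocks by role) in the 6 livers (columns), as log2 differences from each row's baseline after centring of the array; colour ends at -2 and 2, and the printed numbers go beyond it. Lpin1 runs from -0.68 to 5.39, while Cideb stays between 0.04 and 0.21.

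Compared between genotypes, 24 of the 35 genes had a higher mean in HMGB2-KO and 11 a lower one, with a median log2 fold change of 0.13 against -0.00 over all genes. Over all genes, 49.5% had a higher mean in HMGB2-KO. The split depended on the scaling between arrays. With the values as deposited, which set the median of all genes at -0.12, 19 of the 35 genes (54.3%, against 68.6% after centring) were higher and their median was 0.02. Of all genes, 23.0% were higher with these values, so the share of all genes fell too. Without WT liver 2, 22 of 35 were higher, and the median was 0.12. Without HMGB2-KO liver 3 it was 0.04, with 20 of 35 higher. By liver, the median over the 35 genes was 0.15, -0.03 and 0.02 in WT livers 1 to 3 and 0.28, 0.02 and 0.14 in HMGB2-KO livers 1 to 3, so the genotypes overlapped.

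In the fit across all genes (limma, Benjamini-Hochberg adjustment over 19505 genes), 0% of all genes and 0 of the 35 passed an adjusted p of 0.05, and the smallest adjusted p among the 35 was 0.994. Hmgb2, with a log2 fold change of -0.89, had an adjusted p of 0.645 in limma and did not pass either. At an unadjusted p under 0.05 the same fit held 717 genes, 3.68% of all, and 2 of the 35 (5.71%). These were Cd36, which was higher in HMGB2-KO like 1.06% of all genes, and Cidea, which was lower like 2.61%. Of the 16 alternative settings, Cidea had an unadjusted p under 0.05 in 15, all but the fit within animals 38 to 41, and Cd36 in 7. Cd36 missed it with the values as deposited and without HMGB2-KO liver 2, among others. Without HMGB2-KO liver 2 the count was 4 (Acly, Fasn, Gpam and Cidea, against 3.08% of all genes), and with quantile normalization it was also 4 (Plin2, Plin5, Cidea and Cd36, against 3.74%). The 3 values of HMGB2-KO lay on 1 side of all 3 values of WT for 3 of the 35 genes (8.57%), against 9.67% of all genes. Cd36 and Plin2 lay above (4.32% of all genes did) and Cidea below (5.35% did). Both shares were near those of all genes. With the values as deposited, Cd36 and Plin2 overlapped between the genotypes. For 25 of the 35 the 95% confidence interval of the log2 fold change lay between -1 and 1, and for 8 of these between -0.5 and 0.5. The other 10 intervals reached a 2-fold difference in at least 1 direction.

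**Figure D2:**
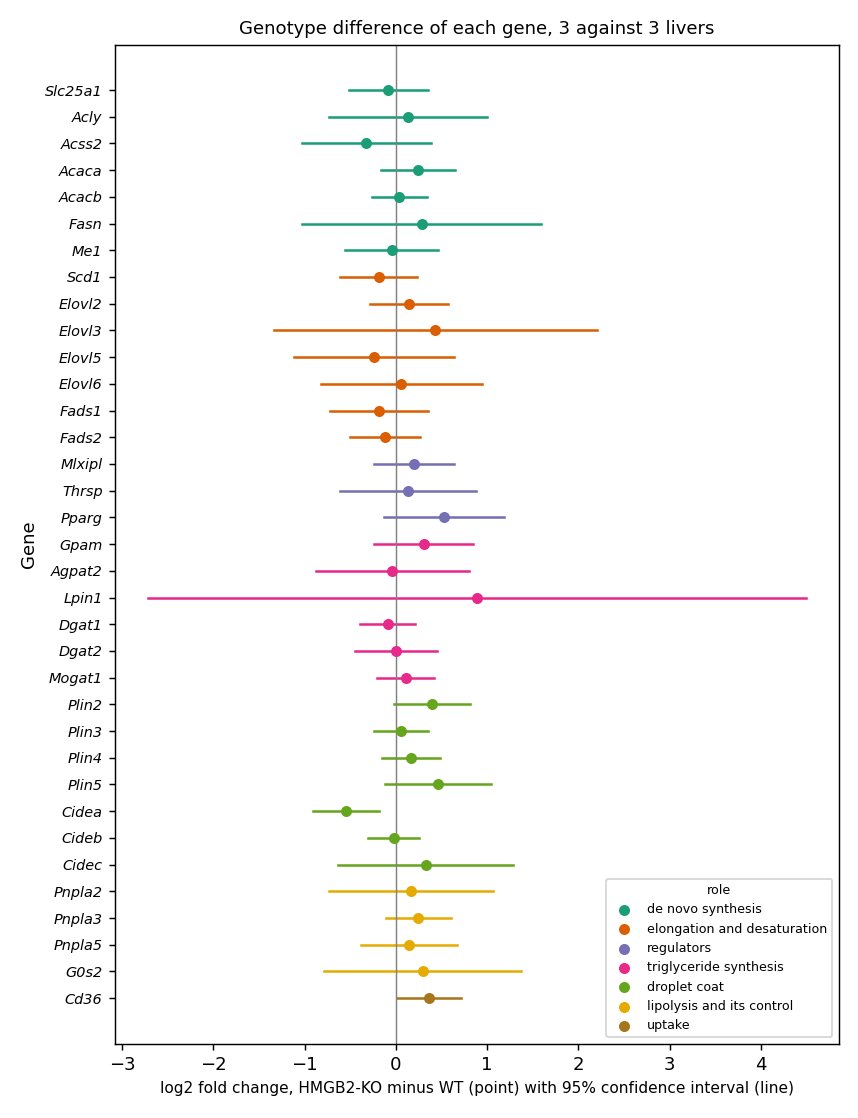
Log2 fold change of each measured gene, HMGB2-KO minus WT (points, 3 livers per genotype), with the 95% confidence interval of the limma fit (lines), coloured by role. The intervals of Cidea (-0.90 to -0.18) and Cd36 (0.02 to 0.72) lie on 1 side of 0, and that of Lpin1 runs from -2.71 to 4.49.

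The uptake and storage end of the pathway held the genes with the smallest p. Cidea, a droplet protein that promotes droplet fusion and is abundant in brown fat, read -0.06, 0.20 and 0.43 in WT livers 1 to 3 and -0.25, -0.45 and -0.36 in HMGB2-KO livers 1 to 3. Its log2 fold change was -0.54 (SE 0.16), or 1.46-fold lower in HMGB2-KO, with an unadjusted p of 0.00883 and an adjusted p of 0.994 in limma. Every HMGB2-KO liver lay below every WT liver. An exact permutation test (two-sided) gave p = 0.1, its floor for groups of 3. The difference stayed between -0.67 and -0.42 with any 1 liver left out.

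Cd36, the membrane protein that takes up long-chain fatty acids, read 0.01, -0.31 and -0.12 in WT and 0.02, 0.39 and 0.26 in HMGB2-KO. WT liver 1 and HMGB2-KO liver 1 nearly met, and the genotypes did not overlap after centring. The array medians subtracted were 0.01 and -0.04 in these livers, and with the values as deposited WT liver 1 lay the higher. The log2 fold change was 0.37 (SE 0.15, unadjusted p = 0.0428 and adjusted p = 0.994 in limma), or 1.29-fold higher in HMGB2-KO, and 0.25 with the values as deposited.

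Plin2, the perilipin that coats most droplets of the hepatocyte, read -0.08, -0.74 and -0.35 in WT and 0.09, -0.07 and -0.01 in HMGB2-KO. The HMGB2-KO livers lay close together, the WT livers were spread, and the highest WT liver lay just under the lowest HMGB2-KO liver. With the values as deposited that WT liver, liver 1, lay above HMGB2-KO liver 2. The log2 fold change of 0.39 (SE 0.18, adjusted p = 0.994 in limma) was 0.22 without WT liver 2, whose value was the lowest. Plin5, the perilipin that holds droplets to mitochondria, read -0.15, 0.75 and 0.28 in WT and 0.50, 1.08 and 0.69 in HMGB2-KO. Here WT liver 2 lay above 2 of the 3 HMGB2-KO livers, and the log2 fold change of 0.46 (SE 0.25) was 0.24 without WT liver 1 and 0.69 without WT liver 2.

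The other coat genes differed less or in 1 liver only. Plin4 read -0.01, 0.18 and -0.00 in WT and 0.39, 0.22 and 0.04 in HMGB2-KO. The genotypes overlapped and the log2 fold change was 0.17 (SE 0.14). Plin3, which shuttles between cytosol and droplet, kept within -0.28 and 0.00 in all 6 livers. Cideb, the CIDE protein of hepatocytes that also acts in VLDL lipidation, was the steadiest of the 35 genes, from 0.04 to 0.21, with a log2 fold change of -0.03 (95% interval -0.30 to 0.25). Cidec, the relative of Cidea that makes large droplets, read 0.14, -0.19 and -0.13 in WT and -0.16, 1.34 and -0.37 in HMGB2-KO. Its single high value was that of HMGB2-KO liver 2, and the log2 fold change of 0.33 (SE 0.41) became -0.21 without that liver. Of the 7 coat genes, 5 had a higher mean in HMGB2-KO, among them Plin3, which was lower with the values as deposited, and the median was 0.17.

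**Figure D3:**
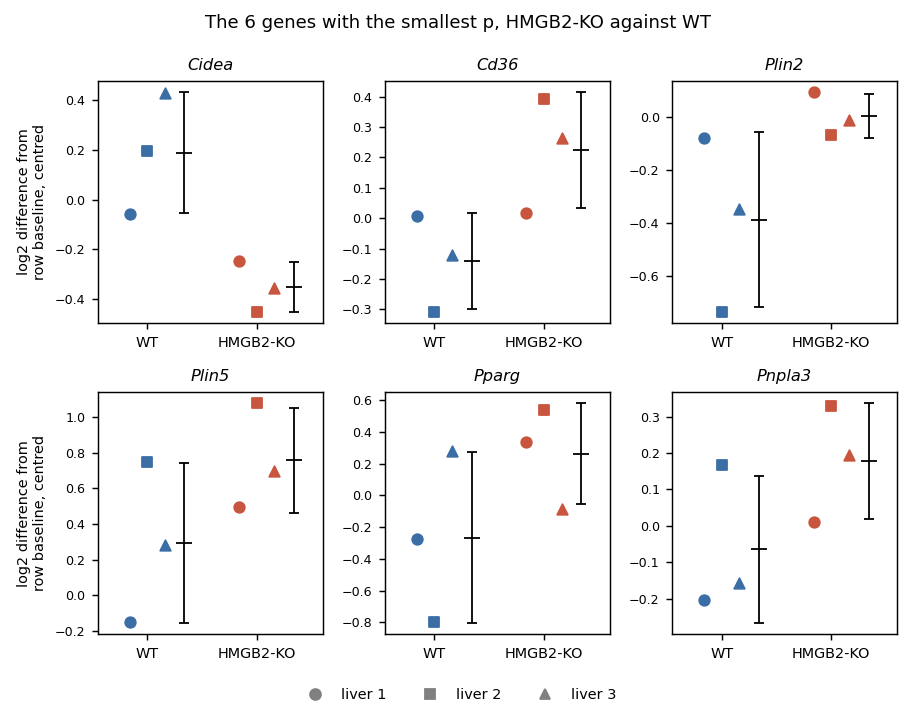
The 6 genes with the smallest p among the 35. Points are single livers (circle, liver 1; square, liver 2; triangle, liver 3), bars to their right the mean ± SD of 3 livers, and the vertical axis the log2 difference from the row baseline after centring, scaled per gene. As plotted, WT and HMGB2-KO do not overlap in Cidea, Cd36 and Plin2 and overlap in Plin5, Pparg and Pnpla3. With the values as deposited Cd36 and Plin2 overlap as well.

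Among the regulators, Pparg read -0.28, -0.80 and 0.28 in WT and 0.34, 0.54 and -0.09 in HMGB2-KO. The WT mean was -0.27 ± 0.54 and the HMGB2-KO mean 0.26 ± 0.32 (SD, n = 3 each). They differed by 0.53 on the log2 scale (SE 0.28), and WT liver 3 lay above HMGB2-KO liver 3. Leaving out WT liver 2 gave 0.26. Mlxipl, which encodes ChREBP, the sugar sensor, read 0.47, 0.12 and 0.33 in WT and 0.69, 0.69 and 0.14 in HMGB2-KO (log2 fold change 0.20, SE 0.19). The values of HMGB2-KO livers 1 and 2 were above all WT livers, and that of HMGB2-KO liver 3 was below 2 of them. Thrsp, the Spot 14 protein that responds to thyroid hormone and sugar, lay between 1.08 and 2.26 with the genotypes mixed (0.13, SE 0.32). With quantile normalization its log2 fold change was 0.52, and without WT liver 1 it was -0.13.

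The enzymes that make palmitate showed a wide spread between livers and small genotype means. Fasn, the fatty acid synthase, read -0.43, -0.93 and 0.02 in WT livers 1 to 3 and -0.01, -1.46 and 0.97 in HMGB2-KO livers 1 to 3. The lowest and the highest liver of all 6 were thus both HMGB2-KO. The WT mean was -0.45 ± 0.48 and the HMGB2-KO mean -0.17 ± 1.22 (SD, n = 3 each), with a log2 fold change of 0.28 (SE 0.56, adjusted p = 0.997 in limma). It was 0.93 without HMGB2-KO liver 2, -0.29 without HMGB2-KO liver 3 and 0.04 without WT liver 2, so the 6 livers gave no direction for this gene.

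Acly, which cleaves exported citrate to acetyl-CoA, kept between -0.10 and 0.01 in the WT livers and read 0.51, -0.91 and 0.62 in the HMGB2-KO livers. Acss2, which makes acetyl-CoA from acetate, read 0.80, 0.53 and 0.81 in WT and 0.56, -0.34 and 0.95 in HMGB2-KO. In both genes HMGB2-KO liver 2 was the lowest and HMGB2-KO liver 3 the highest of all livers. The log2 fold changes were 0.13 (SE 0.37) for Acly and -0.32 (SE 0.30) for Acss2, and without HMGB2-KO liver 2 they were 0.62 and 0.04. Acaca, the cytosolic acetyl-CoA carboxylase that commits acetyl units to synthesis, read 0.16, -0.07 and -0.20 in WT and 0.49, -0.02 and 0.14 in HMGB2-KO (0.24, SE 0.17). Acacb, the mitochondrial carboxylase that restrains fat oxidation, was among the 3 steadiest of the genes, between -0.17 and 0.15. Slc25a1, the citrate carrier (-0.09, SE 0.19), and Me1, the malic enzyme that makes NADPH (-0.05, SE 0.22), had overlapping genotypes. Of the 7 genes of synthesis, 4 had a higher mean in HMGB2-KO, among them Acacb, which was lower with the values as deposited, and the median was 0.04.

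The promoters of Fasn and Acss2 are shown because these genes ran together over the livers, as given below. They are RefSeq sequences of build GRCm38.p6, from 250 bases before to 50 bases after the gene's start, read on the gene's strand, and capitals mark CCAAT and its reverse ATTGG, the box bound by NF-Y, a partner of SREBP. The Fasn window is chr11:120824498-120824797 (minus strand) and the Acss2 window chr2:155517793-155518092 (plus strand).
Fasn: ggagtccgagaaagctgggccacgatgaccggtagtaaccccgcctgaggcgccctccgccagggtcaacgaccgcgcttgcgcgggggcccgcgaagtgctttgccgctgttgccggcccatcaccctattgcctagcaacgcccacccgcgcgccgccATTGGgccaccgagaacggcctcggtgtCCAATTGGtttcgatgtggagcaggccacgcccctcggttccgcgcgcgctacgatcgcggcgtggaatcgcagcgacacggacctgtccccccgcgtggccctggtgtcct
Acss2: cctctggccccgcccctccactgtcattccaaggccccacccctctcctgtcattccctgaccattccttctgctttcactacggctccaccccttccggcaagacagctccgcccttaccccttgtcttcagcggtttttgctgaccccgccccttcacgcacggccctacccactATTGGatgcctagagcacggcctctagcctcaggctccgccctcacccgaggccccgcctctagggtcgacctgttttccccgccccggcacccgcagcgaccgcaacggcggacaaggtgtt
Fasn held 3 matches, 2 of which overlap, and Acss2 held 1.

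Enzymes that lengthen and desaturate fatty acids had 3 of 7 higher means in HMGB2-KO and a median of -0.12. Scd1, the desaturase that makes oleate, read 0.31, -0.03 and 0.56 in WT and 0.28, -0.07 and 0.06 in HMGB2-KO. With overlapping genotypes, the log2 fold change was -0.19 (SE 0.18). The genes of polyunsaturated fat, Elovl5 (-0.24, SE 0.38), Fads1 (-0.19, SE 0.23), Fads2 (-0.12, SE 0.16) and Elovl2 (0.14, SE 0.18), differed within their error. HMGB2-KO liver 2 held the lowest value of Elovl5 (-0.65) and of Fads1 (-0.72), and without it both fold changes turned to 0.15 and 0.06.

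Elovl3 and Elovl6 split the livers by number rather than by genotype. Elovl3, an elongase of saturated fatty acids whose liver expression follows the time of day, read 0.11, -0.93 and 1.91 in WT livers 1 to 3 and 0.36, -0.00 and 2.03 in HMGB2-KO livers 1 to 3. Liver 3 of either genotype stood far above the other 4. Elovl6, which takes palmitate to stearate, read 1.08, 1.06 and -0.21 in WT and 0.74, 1.14 and 0.24 in HMGB2-KO, and here liver 3 of either genotype stood below the other 4. The genotype differences were 0.43 (SE 0.76) for Elovl3 and 0.06 (SE 0.38) for Elovl6, the latter -0.06 with the values as deposited.

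In triglyceride synthesis Lpin1 had the widest spread of the 35 genes, 6.07 log2 units between the lowest and the highest liver. It encodes lipin 1, the phosphatidate phosphatase that also acts as a coactivator and that fasting and glucocorticoids induce in liver. It read 3.74, 5.16 and -0.68 in WT livers 1 to 3 and 4.16, 5.39 and 1.33 in HMGB2-KO livers 1 to 3. Both livers numbered 3 lay far below the other 4, with a mean of 0.33 against 4.61. Within the genotypes its residual standard deviation of 2.61 exceeded that of 99.9% of all genes. The genotype difference was 0.89 (SE 1.55), -0.82 without WT liver 3 and 2.10 without WT liver 2.

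Dgat2, the enzyme of the last step that serves newly made fatty acids, read 0.96, 0.71 and 0.27 in WT and 0.78, 0.70 and 0.46 in HMGB2-KO. The means were 0.65 ± 0.35 and 0.65 ± 0.17 (SD, n = 3 each), and the 95% interval of the difference ran from -0.45 to 0.45. Dgat1 (-0.09, SE 0.13), which esterifies fatty acids from outside, was steadier. Gpam, which starts glycerolipid synthesis at the mitochondrion, kept between -0.14 and -0.04 in WT and read 0.49, -0.34 and 0.52 in HMGB2-KO (0.30, SE 0.23), the order that Acly had in these livers. Agpat2, the next acyltransferase, read 0.02, -0.45 and 0.88 in WT and -0.29, 0.02 and 0.61 in HMGB2-KO, with both livers numbered 3 at the top. Mogat1, a monoacylglycerol acyltransferase that fatty liver induces, differed by 0.11 (SE 0.13, or -0.01 with the values as deposited). Of the 6 genes, 4 had a higher mean in HMGB2-KO, Dgat2 and Mogat1 among them, which were both lower with the values as deposited, and the median was 0.05.

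The promoter of Lpin1 is shown because this gene varied most, and that of Plin2 because its genotypes did not overlap after centring. The windows are chr12:16610917-16611216 (minus strand) for Lpin1 and chr4:86670010-86670309 (minus strand) for Plin2, from the same source and build, and capitals mark CCAAT or ATTGG and the E-box CACGTG, to which ChREBP, USF and clock factors can bind.
Lpin1: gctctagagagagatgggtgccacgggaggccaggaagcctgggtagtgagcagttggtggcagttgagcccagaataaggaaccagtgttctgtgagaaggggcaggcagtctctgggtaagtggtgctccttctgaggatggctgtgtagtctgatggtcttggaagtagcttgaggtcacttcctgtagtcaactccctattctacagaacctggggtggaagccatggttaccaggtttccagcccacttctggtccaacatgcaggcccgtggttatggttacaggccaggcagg
Plin2: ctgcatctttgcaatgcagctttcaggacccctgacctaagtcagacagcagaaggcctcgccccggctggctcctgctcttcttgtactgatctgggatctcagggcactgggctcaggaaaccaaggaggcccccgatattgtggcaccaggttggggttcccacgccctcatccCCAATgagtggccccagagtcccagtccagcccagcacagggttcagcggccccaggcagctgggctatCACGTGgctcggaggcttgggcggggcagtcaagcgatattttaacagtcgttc
In the Lpin1 window there was no match, and the Plin2 window held 1 CCAAT and 1 CACGTG.

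All 4 genes of droplet breakdown and its control had a higher mean in HMGB2-KO (median 0.20), each with overlap between the genotypes. Pnpla2, which encodes the lipase ATGL, read 0.62, 1.15 and 0.04 in WT and 0.86, 1.41 and 0.04 in HMGB2-KO, and the log2 fold change was 0.17 (SE 0.39). Both livers numbered 3 were the lowest, at equal values. G0s2, the protein that inhibits ATGL, read 0.76, -0.12 and -0.07 in WT and -0.27, 1.57 and 0.15 in HMGB2-KO. Its highest value was in HMGB2-KO liver 2, as with Pnpla2, and its difference of 0.29 (SE 0.47) was -0.25 without that liver. Pnpla3, a droplet protein whose gene SREBP-1c and ChREBP induce, read -0.21, 0.17 and -0.16 in WT and 0.01, 0.33 and 0.19 in HMGB2-KO (0.24, SE 0.15). Pnpla5, a relative of Pnpla3 that also acts on triglyceride, differed by 0.15 (SE 0.22).

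Many of the genes varied widely between livers of 1 genotype. Their median residual standard deviation was 0.32, against 0.19 over all genes, and 26 of 35 lay above the latter. For 13 of the 35 it was in the top 10% of all genes. After Lpin1, the widest were Elovl3 (1.27) and Fasn (0.93), and the narrowest were Cideb (0.085), Plin3 (0.12) and Acacb (0.12).

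A single liver, HMGB2-KO liver 2, held the highest or the lowest value of 22 of the 35 genes (62.9%), against 31.3% of all genes. For the other 5 livers the share ran from 17.1% to 34.3% of the 35 genes. HMGB2-KO liver 2 was lowest for 13 genes, namely Fasn, Acly, Acss2, Slc25a1, Scd1, Elovl5, Fads1, Gpam, Dgat1, Mogat1 and the coat genes Plin3, Cidea and Cideb. It was highest for 9, namely Pnpla2, G0s2, Cidec, Plin5, Pnpla3, Cd36, Pparg, Lpin1 and Elovl6. In this liver the genes of synthesis had a median of -0.22 and the 4 genes of breakdown and its control one of 0.87. In HMGB2-KO liver 3 the same medians were 0.36 and 0.13, and in HMGB2-KO liver 1 they were 0.49 and 0.12. The WT livers 1 to 3 had 0.16, -0.07 and 0.03 for synthesis and 0.29, 0.32 and -0.11 for breakdown and its control. The latter list holds G0s2, the inhibitor of ATGL, and Pnpla3, which lipogenic factors induce. They read 1.57 and 0.33 in HMGB2-KO liver 2, so its median is no measure of breakdown alone. Some of the extremes were near ties, as in Slc25a1 (-0.22 against -0.19 in WT liver 2), and others lay far apart, as in Acly (-0.91 against -0.10 in WT liver 1). Over the 35 genes, deviations of HMGB2-KO liver 2 from its genotype mean correlated at 0.45, 0.59 and -0.66 with those of WT livers 1 to 3. The lean was thus shared in part with WT livers 1 and 2. These counts were made after the values were seen.

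The other pattern, also seen in the values first, was by liver number. Both livers numbered 3 lay outside the range of the other 4 for 9 of the 35 genes (25.7%), against 19.7% of all genes, so the share was near that of all genes. Above the others were 4 genes, Fasn, Acss2, Elovl3 and Agpat2 (11.4%, against 10.4% of all genes), and below them 5, Lpin1, Pnpla2, Elovl6, Fads2 and Dgat2 (14.3%, against 9.32%). Livers numbered 3 are those of animals 31 and 32, the other 4 those of animals 38 to 41. Among 12 clock genes, 10 lay outside in the same sense, 4 above and 6 below, with Per1 at 0.12, 0.70 and -1.55 in WT livers 1 to 3 and at 0.49, 0.72 and -0.44 in HMGB2-KO livers 1 to 3. Of 14 measured genes that fasting induces in liver, 7 lay below and 1 above. The median of this list by liver was 0.09, 0.21 and -0.53 in WT and 0.52, 0.54 and -0.26 in HMGB2-KO. The part of feeding state or time of day in the lipid genes was not tested.

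**Figure D4:**
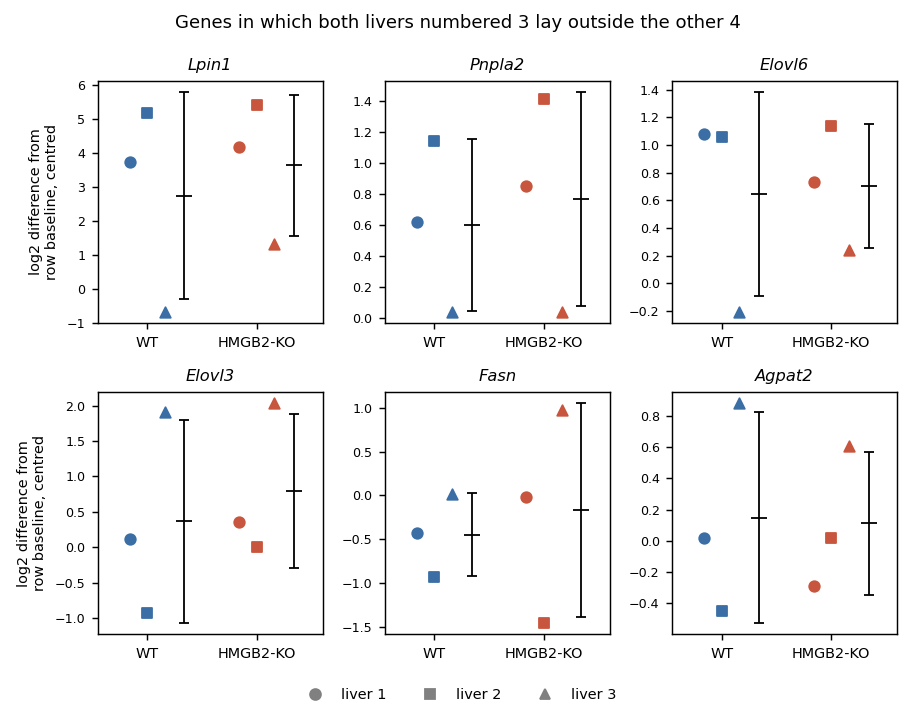
Genes in which both livers numbered 3 (triangles) lay outside the range of the other 4 (circles, liver 1; squares, liver 2). Points are single livers, bars the mean ± SD of 3 livers, and the vertical axis the log2 difference from the row baseline after centring, scaled per gene: livers numbered 3 are lowest in Lpin1, Pnpla2 and Elovl6 and highest in Elovl3, Fasn and Agpat2.

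Fasn was compared over the 6 livers with 9 genes that SREBP-1c or ChREBP is known to control, and 0 of the 9 relations passed a Benjamini-Hochberg adjusted p of 0.05 (exact permutation tests, two-sided). Acly (r = 0.86, Spearman's rho 0.71, exact p = 0.0361 and 0.136, adjusted p = 0.181 and 0.408) and Acss2 (r = 0.82, rho 0.94, exact p = 0.0403 and 0.0167, adjusted p = 0.181 and 0.150) went with it most closely. Slc25a1 followed (r = 0.77, rho 0.60, exact p = 0.0819 and 0.242, adjusted p = 0.246 and 0.435). The relation with Elovl6 ran the other way (r = -0.71, rho -0.89, exact p = 0.115 and 0.0333, adjusted p = 0.259 and 0.150). Without the 2 livers farthest from the Fasn median, HMGB2-KO livers 2 and 3, r was 0.37 for Acly and 0.42 for Acss2, so both rest on those livers, and it was 0.75 for Slc25a1 and -0.69 for Elovl6. Over the same 4 livers it was 0.87 for Scd1, 0.64 for Me1, 0.29 for Acaca, -0.61 for Thrsp and -0.59 for Pnpla3, so that those of Scd1 and Me1 were larger and that of Thrsp changed sign. The other 5 had r of 0.40 (Scd1), 0.30 (Acaca), 0.22 (Thrsp, or 0.75 with quantile normalization), 0.04 (Me1) and -0.29 (Pnpla3), with exact p from 0.436 to 0.946 and adjusted p from 0.745 to 0.946. Their rho was 0.60, 0.09, 0.14, 0.14 and -0.26 in the same order, with exact p from 0.242 to 0.919 and adjusted p from 0.435 to 0.919.

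**Figure D5:**
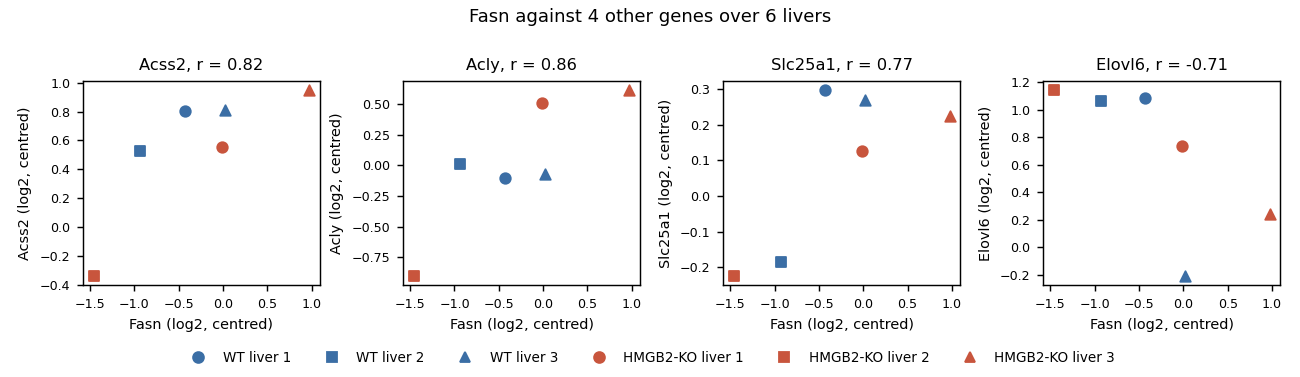
Values of Acss2, Acly, Slc25a1 and Elovl6 (vertical axes) against Fasn (horizontal axes) in the 6 livers, as centred log2 differences from the row baselines; blue is WT, red HMGB2-KO, and shapes give the liver number. HMGB2-KO liver 2 lies at the low end of Fasn and HMGB2-KO liver 3 at the high end, and Elovl6 runs opposite to the other 3 genes.

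Promoters of 30 of the 36 genes were found in the RefSeq table, some with several starts, and were searched on both strands. CCAAT stood in at least 1 promoter of 20 of the 30 genes (66.7%), against 42.2% of the 15691 array genes with a promoter there, and GGGCGG, the box of Sp1, in 20 of 30, against 51.2%. CACGTG stood in those of Slc25a1, Elovl5, Mlxipl, Plin2 and Pnpla5 (16.7%, against 9.26%). The sterol regulatory element of the LDL receptor gene, and a wider form with 1 free base that contains it, were in 0 of 30, against 0.0765% and 0.261% of array genes. The carbohydrate response element, written as a pair of perfect E-boxes, was in 0 of 30 and in 0% of array genes, and the perfect direct repeat to which PPAR receptors bind was in 0 of 30 against 0.0637%. A match is a description of letters in these windows.

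Other genes of the pathway, from lists that hold none of the 36, showed no member past the adjusted threshold. Except for Irs2, of the fasting-induced genes given last, none had an unadjusted p under 0.05 in limma, against 3.68% of all genes. For control of SREBP and ChREBP, 10 of 18 measured genes had a higher mean in HMGB2-KO (median 0.03), with Mbtps1, the protease that releases SREBP, at 0.25 (SE 0.13). The route from sugar to acetyl-CoA and NADPH had 7 of 13 higher (0.03), with the fructose kinase Khk at 0.25 (SE 0.14) and the pyruvate carrier Mpc1 at -0.21 (SE 0.12). Elongation and desaturation had 8 of 15 higher (0.01), with the dehydratase Hacd2 at 0.28 (SE 0.13). Triglyceride synthesis had 8 of 13 higher (0.05), and its Agpat1, at 2.03 (SE 1.46), was read at -5.86 in WT liver 2 and between -0.01 and 0.39 in the other 5 livers. Droplet growth and lipolysis had 9 of 16 higher (0.06), where Abhd5, the activator of ATGL, read -2.91 in WT liver 1 and -0.46 to -0.15 in the other 5. Uptake and VLDL export had 12 of 14 higher (0.09), with the fatty acid binding protein Fabp4 at 0.35 (SE 0.15) and the transporter Slc27a2 at 0.34 (SE 0.18). The median of this list was -0.24 in WT liver 2, from whose array 0.26 was subtracted, and -0.05 to 0.13 in the other 5 livers. All 3 Fabp4 values of HMGB2-KO, 0.23, 0.04 and 0.25, lay above those of WT, -0.01, -0.44 and -0.10, as they did for Cd36. With the values as deposited both genes overlapped between the genotypes. Among the fasting-induced genes 11 of 14 were higher (0.27), with Irs2 at 0.46 (SE 0.16, unadjusted p = 0.0202 and adjusted p = 0.994 in limma) and G6pc at 0.59 (SE 0.26). The counts and medians of all these lists are after centring, where 49.5% of all genes had a higher mean in HMGB2-KO. With the values as deposited 23.0% of all genes did, their median was -0.12, and every log2 fold change in these lists was lower.

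Several of these genes are also expressed by other cells of a liver sample, and in whole liver a change in cell number and a change of RNA per cell cannot be told apart. Macrophages also express Cd36 and Plin2, and 13 of 13 measured markers of Kupffer cells and macrophages had a higher mean in HMGB2-KO, with a median of 0.22. Their median by liver ran from 0.15 to 0.40 in WT and from 0.22 to 0.60 in HMGB2-KO, and Clec4f, which defines Kupffer cells, differed by 0.15 (SE 0.13). Adgre1 and Marco, higher by 0.08 and 0.09, were lower in HMGB2-KO with the values as deposited. Endothelium also expresses Cd36 and Fabp4. Of 11 sinusoidal markers 7 were higher (median 0.02), with medians by liver from 0.53 to 0.58 in WT and from 0.63 to 0.69 in HMGB2-KO, and Stab2 differed by 0.09 (SE 0.15), Pecam1 by 0.55 (SE 0.14). The medians were apart only after centring. With the values as deposited WT liver 2, whose array median was 0.26, had the highest of all livers. Adipose tissue also expresses Cidea, and of 12 measured adipocyte genes, Cidea and Pnpla5 among them, 8 were lower (median -0.12), with medians by liver from 0.00 to 0.24 in WT and from -0.15 to 0.07 in HMGB2-KO. Its defining genes Adipoq (-0.01, SE 0.20) and Plin1 (-0.12, SE 0.17) overlapped between the genotypes, as did Ucp1 of brown fat (0.05, SE 0.16). At an unadjusted p under 0.05 in limma, 2 of the 12 were lower and 0 higher, against 2.61% and 1.06% of all genes. Cidea itself was 1 of the 2, so the count does not stand apart from the value of Cidea. The other was Tshr (-0.88, SE 0.29, unadjusted p = 0.0178 and adjusted p = 0.994 in limma), whose genotypes overlapped. Aqp7 differed by -0.26 (SE 0.15) and Fabp4 by 0.35 (SE 0.15). Stellate cell markers had 8 of 11 higher (median 0.04), cholangiocyte markers 7 of 9 lower (-0.29), lymphocyte markers 6 of 7 higher (0.12) and hepatocyte markers 10 of 12 higher (0.07). All these marker counts are after centring. With the values as deposited every log2 fold change was lower, the median of all genes being -0.12. The part of these cells in the values of Cd36, Plin2 and Cidea was not tested.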

How the data were processed

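Liver RNA of 6 mice was labelled with biotin and hybridised to 1 Clariom S array per liver, per the labels' protocols, which also say that labelling was done in duplicate; the table has 1 column per liver, and no source says how duplicates were combined. The deposited table holds log2 values (22206 rows, -8.60 to 6.93, taken here as log2) that the authors gave relative to a baseline per row; the base of the logarithm, the probe summary, the normalization and that baseline are named in no header or label (not given in the sources). The number of arrays limits the precision. The platform annotation names 19572 rows with 1 gene each and leaves 2634 unnamed. Where a gene had more than 1 row (55 genes, none of the 36 among them), its row of highest mean was used. No filter on low values was applied. Each array was centred on its median over all rows. The fit of genotype, 3 against 3, used lmFit and eBayes (limma 3.58.1, R 4.3.3, two-sided) on all 19505 genes. On simulated data for this comparison, with 19505 genes of which 200 were changed, 59.8% of 2-fold and 90.9% of 4-fold changes were found. These shares are no detection rate for the lipid genes, whose median residual standard deviation was 0.32, against 0.19 over all genes. In the real data Hmgb2, with a log2 fold change of -0.89, had an adjusted p of 0.645 in limma. Genes named with values in every liver are those with small p, central steps of the pathway and the widest and narrowest spreads; from other lists, up to 3 genes with the smallest p and the defining markers. The 36 genes and all lists were chosen with earlier results of these data known. Alternatives are given in the closing section. Protein comparisons were planned and not run.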

Additional observations from a re-analysis of the deposited data

How the results depend on the processing

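No gene passed the adjusted threshold under any of the 16 alternatives run (smallest adjusted p 0.0664, without HMGB2-KO liver 3), and the unadjusted count of 717 stayed within 601 to 946. The median of the 35 genes moved to 0.016 with the values as deposited, where that of all genes was -0.12, and lay between 0.038 and 0.14 with 1 liver left out. Deposited values also turned Acacb to -0.081, Elovl6 to -0.058, Dgat2 to -0.12, Mogat1 to -0.012, Plin3 to -0.063 and r of Fasn with Me1 to -0.19. Centring on hepatocyte markers turned Acacb (-0.062), Elovl6 (-0.040), Dgat2 (-0.10) and Plin3 (-0.044), centring without receptor rows Dgat2 (-0.012), and array weights Acacb (-0.010) and Dgat2 (-0.052). Within animals 38 to 41 the values turned for Acly (-0.15), Fasn (-0.056), Me1 (0.078), Elovl6 (-0.13), Thrsp (-0.13), Agpat2 (0.081), Dgat2 (-0.093) and Pnpla5 (-0.060). Without the 2 livers farthest from the Fasn median, r of Fasn with Thrsp was -0.61. The cause of these turns was not tested. All these genes had an adjusted p far above the threshold in each setting.

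With 1 liver left out, both signs occurred for Slc25a1 (-0.24 to 0.048), Acly (-0.14 to 0.62), Acss2 (-0.60 to 0.038), Acacb (-0.048 to 0.11), Fasn (-0.29 to 0.93), Me1 (-0.28 to 0.14), Elovl2 (-0.0058 to 0.27), Elovl3 (-0.21 to 1.21), Elovl5 (-0.57 to 0.15), Elovl6 (-0.37 to 0.29), Fads1 (-0.33 to 0.058), Fads2 (-0.23 to 0.0089), Thrsp (-0.13 to 0.40), Agpat2 (-0.34 to 0.33), Lpin1 (-0.82 to 2.10), Dgat2 (-0.19 to 0.16), Plin3 (-0.00014 to 0.14), Cideb (-0.079 to 0.018), Cidec (-0.21 to 0.65), Pnpla2 (-0.15 to 0.53), Pnpla5 (-0.078 to 0.39) and G0s2 (-0.25 to 0.67). The other 13 genes kept their sign in each.

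With the replicate block, 4 of the 35 genes (Lpin1, Plin2, Plin5 and Cidea) against 2 had an unadjusted p under 0.05, 4.40% of all genes did, the adjusted count stayed 0 and every fold change is the same by construction (median 0.13). The liver numbers were not taken as pairs, and no label pairs them, though same-numbered livers have neighbouring animal numbers (38 and 39, 40 and 41, 31 and 32). Variation shared by same-numbered livers thus stays in the error of the main fit. Deviations of same-numbered livers over all genes correlated at 0.036, 0.13 and 0.29 for numbers 1 to 3. Each WT liver correlated best with the HMGB2-KO liver of its number, but HMGB2-KO liver 1 correlated best with WT liver 2 (0.10). Over the 35 genes alone same-numbered livers correlated more closely, at 0.36, 0.59 and 0.85, though WT liver 1 correlated best with HMGB2-KO liver 2 (0.45).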
